A study of Homo sapiens with 8 samples.

Results

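The comparison is of BETp + mTORi, called the combination here, with vehicle, each given for 48 h to SNU1079 and to SSP25, established lines of human cholangiocarcinoma (CCA), a cancer of the bile ducts. Its members were chosen by treatment label. They are 4 of the 8 libraries of the study, 2 with the combination and 2 with vehicle, and the comparison was made within each line. BETp was ARV825 (40 nM in the library treated with it alone), mTORi was AZD8055 (50 nM in the library treated with it alone), and vehicle was 0.01% DMSO. The labels give no doses for the combination. All cells were labelled wildtype and were grown in the same serum-containing medium. The label does not cover tumour mutations, since the study reports mutations of IDH1 and ARID1A in SNU1079. Each treatment was 1 library per line. The 2 lines therefore served as the 2 replicates. They are different tumour lines and not repeat cultures. The p-values therefore set the mean change against how far treatment changes differ between the lines, and not against the spread between cultures of 1 line. That difference was estimated over all 8 libraries, those with a single drug included, and not from the combination and vehicle libraries alone. For each gene the estimate also drew on the spread of other genes. Within a line an effect of the drugs cannot be told apart from a difference between single cultures. In bulk RNA, fewer cells of a kind and less RNA per cell also cannot be told apart.

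BET proteins, among them BRD2 and BRD3, bind acetylated histones and help RNA polymerase II to elongate. ARV825 joins them to cereblon, the substrate receptor of a ubiquitin ligase, so that they are degraded. The mTOR kinase couples amino acid and growth factor supply to translation and biosynthesis, and AZD8055 blocks its active site in both mTOR complexes. One transcription factor downstream of mTOR complex 1 is ATF4, which also acts in the integrated stress response and switches on genes for amino acid synthesis, amino acid transport and tRNA charging. Serine, glycine and one-carbon (SGOC) metabolism, which supplies methyl and formyl groups, is among its targets.

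Values were TPM, the length-scaled share of a library's transcripts that a gene holds, a unit that drops the number of reads, and depth is therefore unknown. Each library had 13308 to 14526 genes at 1 TPM or above. Across the 16060 genes tested, Pearson's r of log2 values was 0.975 to 0.986 for libraries of the same line and 0.789 to 0.807 for libraries of different lines. Of the bile duct markers, KRT7, KRT8, KRT18 and KRT19 lay between 293 and 3746 TPM in every library, while EPCAM was at 59.7 to 101 TPM in SNU1079 and only 0.90 to 1.74 TPM in SSP25. The hepatocyte genes ALB, APOA1 and APOB, the leukocyte genes PTPRC and CD3E, and the fibroblast gene DCN were at or near 0 in all 8 libraries. Other markers of these cell types were present. The macrophage and lysosome gene CD68 lay between 76.4 and 210 TPM in all libraries, the hepatocyte gene SERPINA1 was at 7.64 TPM with the combination against 41.8 TPM with vehicle in SNU1079, and the stromal gene LUM at 9.39 against 22.4 TPM in SSP25. TTR, another hepatocyte gene, reached 2.23 TPM with vehicle in SNU1079. The part of other cell types in the results was not tested.

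Changes were tested with limma on log2(TPM + 1), a scale that understates the change of low genes. Of 16060 genes, 47 were higher in the combination (0.293%) and 244 were lower (1.52%), 291 in all (1.81%), at an adjusted p under 0.05. Without adjustment, 4148 genes had a p under 0.05. All 47 and all 244 called genes moved the same way in both lines. The called rises had a median log2 change of 1.20 (range 0.43 to 2.58) and the called falls a median of -0.91 (range -0.45 to -3.05, leaving out a pseudogene listed at 0 in both combination libraries). Of all genes tested, 13.2% were higher in both lines and 51% lower in both, the background for the counts of list members below. The lists were drawn up with earlier results of these data known, so their shares are descriptions and not independent evidence. At least 2-fold changes in both lines were found for 51 genes upward, 28 of them called, and for 111 genes downward, 65 of them called.

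The split between rises and falls depended on the scale of the libraries. The median change of all genes tested was -0.19 (-0.18 in SNU1079 and -0.17 in SSP25), and 69.1% of genes in SNU1079 and 66.7% in SSP25 lay below 0. Quantile normalization moved this median to 0.00 and left 12 genes higher and 9 lower, so that 57.1% of calls were rises, against 16.2% as deposited. Centring each library on its median gene, an alternative chosen after seeing the data, added 0.23 to every change and gave 53 rises and 25 falls (67.9% rises). Log2 changes below are as deposited, and 0.23 may be added to each to read it against the median gene. Mitochondrial transcripts took 19.2% of TPM with the combination and 14.4% with vehicle in SNU1079, and 10.1% and 5.99% in SSP25, and rescaling without them gave 27 rises and 62 falls. The calls also rested on single libraries, the 4 compared and, outside the comparison, those with BETp alone. Without the SNU1079 combination, SSP25 combination or SNU1079 vehicle library 0 genes were called by limma (2931, 2967 and 3488 at unadjusted p under 0.05), and without the SSP25 vehicle library 6 were called.

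**Figure D1:**
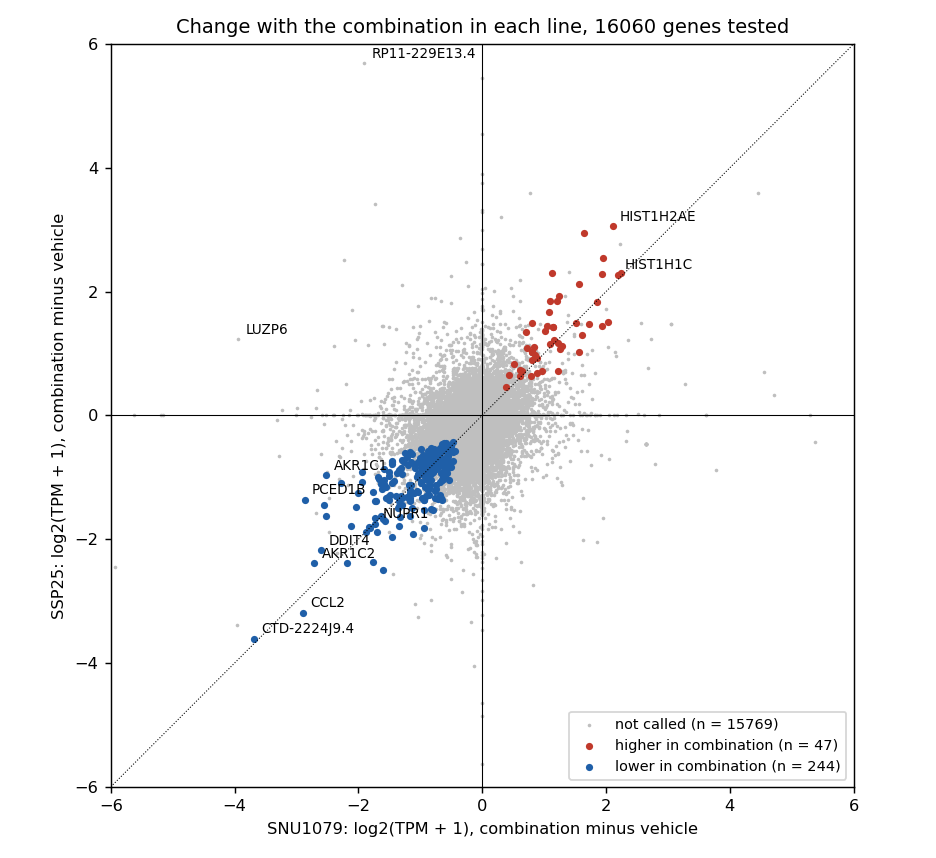
Log2(TPM + 1) in combination minus vehicle for each gene in SNU1079 (x axis) and SSP25 (y axis), with called rises in red, called falls in blue and other genes in grey. Called genes lie near the dotted line of equal change, which is how a test on the mean of 2 lines selects them, with all 47 rises in the upper right and all 244 falls in the lower left.

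Across all genes the changes of the lines correlated only weakly (Pearson's r = 0.26 over 16060 genes, 0.40 over the 8309 genes at 5 TPM or more in every library), and 64.2% of genes had the same sign in both. These are descriptions across genes, which are not independent replicates. Called genes differed between the lines by a median of 0.19 log2 units, against 0.30 for all genes, and the test itself favours genes with small differences. Among the rises, 33 of 47 were larger in SSP25 and 14 in SNU1079. Among the falls, 129 of 244 were larger in SNU1079 and 115 in SSP25.

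The called genes also differed from other genes in structure, a property that the test did not use. Protein-coding genes made up 36 of 47 rises and 237 of 244 falls, and 13063 of the 16060 genes tested. Where the annotation gave an exon count, 41.7% of the called rises (15 genes) had a single exon in their canonical transcript, against 0.858% of the called falls (2 genes) and 4.33% of all genes. Median gene span was 6890 bases for the rises, 29692 bases for the falls and 30829 bases for all genes. Positions were matched for 80.9% of rises and 96.3% of falls. Of the 15 single-exon rises 8 were histone genes and 3 were mitochondrial genes or copies of one.

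Replication-dependent histone genes encode the core histones and linker histones that package new DNA, most from intronless genes in clusters on chromosomes 6 and 1. They formed the largest block of rises. Of 68 genes on the list, 36 passed the filter on low values, 10 of these rose (27.8%, against 0.293% of all genes) and 0 fell. The median change was 1.08 (0.92 in SNU1079 and 1.42 in SSP25), with 27 members (75.0%) higher in both lines and 0 lower in both. It stayed above 0 in every alternative, between 0.87 and 1.58, but only 3 of the 10 calls remained with quantile normalization, and 3 members were called with a pseudocount of 0.1. Because the filter admits genes that reach 1 TPM only with a drug, the other 32 members on the list are not described by these counts. Near-identical histone genes can also share reads, and HIST2H3A and HIST2H3C had identical values in all 8 libraries.

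HIST1H1C, which encodes the linker histone H1.2 (GRCh37 chromosome 6, 26055968 to 26056698, 1 exon), was the most abundant of the called histone genes. It stood at 334 TPM with the combination against 72.7 TPM with vehicle in SNU1079, and at 208 against 42.2 TPM in SSP25. Both combination values lay above both vehicle values, and the mean log2 change was 2.23 ± 0.20 (SE of the model, n = 2 lines, limma adjusted p = 0.0253). The call held in 10 of 17 alternatives, including quantile normalization. With the single drugs its values were 299 TPM with BETp and 43.8 TPM with mTORi in SNU1079, and 146 and 40.9 TPM in SSP25.

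Core histone genes rose in both lines as well. HIST1H2BG, an H2B gene, was at 18.7 against 4.11 TPM in SNU1079 and at 14.4 against 1.62 TPM in SSP25, combination against vehicle, a change of 2.25 ± 0.21 (adjusted p = 0.0277). HIST2H2BE, an H2B gene on chromosome 1 (149856009 to 149858232), was at 26.02 against 7.59 TPM in SNU1079 and 41.2 against 4.48 TPM in SSP25, a change of 2.30 ± 0.34 (adjusted p = 0.0393). HIST1H2AE, an H2A gene (chromosome 6, 26217149 to 26217665), showed the largest called rise, 2.58 ± 0.39 (adjusted p = 0.0416), with 33.6 against 7.0 TPM in SNU1079 and 20.7 against 1.61 TPM in SSP25. In each of these genes the lowest combination value was above the highest vehicle value. With quantile normalization HIST1H2BG stayed called, while HIST2H2BE and HIST1H2AE did not (adjusted p = 0.0545 and 0.0574). HIST2H4A, an H4 gene, was at 88.4 against 22.3 TPM in SNU1079 and 120.1 against 23.9 TPM in SSP25 (2.11 ± 0.24, adjusted p = 0.0315). Its reads may be shared with HIST2H4B, which was at 29.8 against 1.26 TPM in SNU1079 but at 1.17 against 2.98 TPM in SSP25.

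HIST1H2AD, also an H2A gene, differed from the rest in its single-drug libraries. It was at 3.75 TPM with the combination in SNU1079, and was listed at 0 with vehicle and with BETp and at 0.27 TPM with mTORi. In SSP25 it was at 7.94 TPM with the combination, 2.40 TPM with mTORi, 0 with BETp and 0.81 TPM with vehicle. The remaining called histone genes were HIST1H2BC, HIST1H2BD, HIST1H4H and HIST3H2A, whose changes lay between 1.25 and 1.85. The member with the lowest mean, not called, was HIST2H2AC (-0.12 ± 0.39), and HIST1H2AK went opposite ways in the lines (0.81 in SNU1079 and -1.03 in SSP25). Replication-independent histone variants, most of which are made throughout the cell cycle, had a median of -0.10 over 11 genes (0.13 after centring) and 1 call, the fall of H2AFY, which encodes macroH2A1 (-0.53 ± 0.10).

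The stretches before the start sites of 3 of these genes are shown because they hold the CCAAT box, the binding sequence of the factor NF-Y, and in 1 case the TATA box. The letters searched were CCAAT and TATAAA on both strands, and matches are in capitals. Sequences are RefSeq, build GRCh38.p14, read 5′ to 3′ on the strand of the gene.
HIST1H1C, minus strand, chr6:26056481-26056560: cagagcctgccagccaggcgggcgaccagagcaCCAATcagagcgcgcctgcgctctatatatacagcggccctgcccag
HIST2H2BE, minus strand, chr1:149886693-149886772: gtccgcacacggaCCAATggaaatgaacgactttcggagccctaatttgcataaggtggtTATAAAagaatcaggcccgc
HIST1H2AE, plus strand, chr6:26216811-26216890: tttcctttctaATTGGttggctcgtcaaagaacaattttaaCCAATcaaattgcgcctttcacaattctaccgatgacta
Within 250 bases before a start, CCAAT occurred in 78.1% of the 32 histone genes of the list that had a RefSeq window and TATAAA in 65.6%, against 41.8% and 7.97% of the 10955 genes tested that had one. Among called histone genes the shares were 75.0% and 37.5% of 8. A high share of CCAAT was not particular to genes that rose. It was in 80% of 20 SGOC enzymes, 79.2% of 24 mitosis genes and 100% of 15 endoplasmic reticulum chaperones, lists with medians below 0. In cytosolic aminoacyl-tRNA synthetases, also with a median below 0, the share was 50% of 12, nearer to that of all genes. A match describes the letters of the window and is no evidence of binding.

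**Figure D2:**
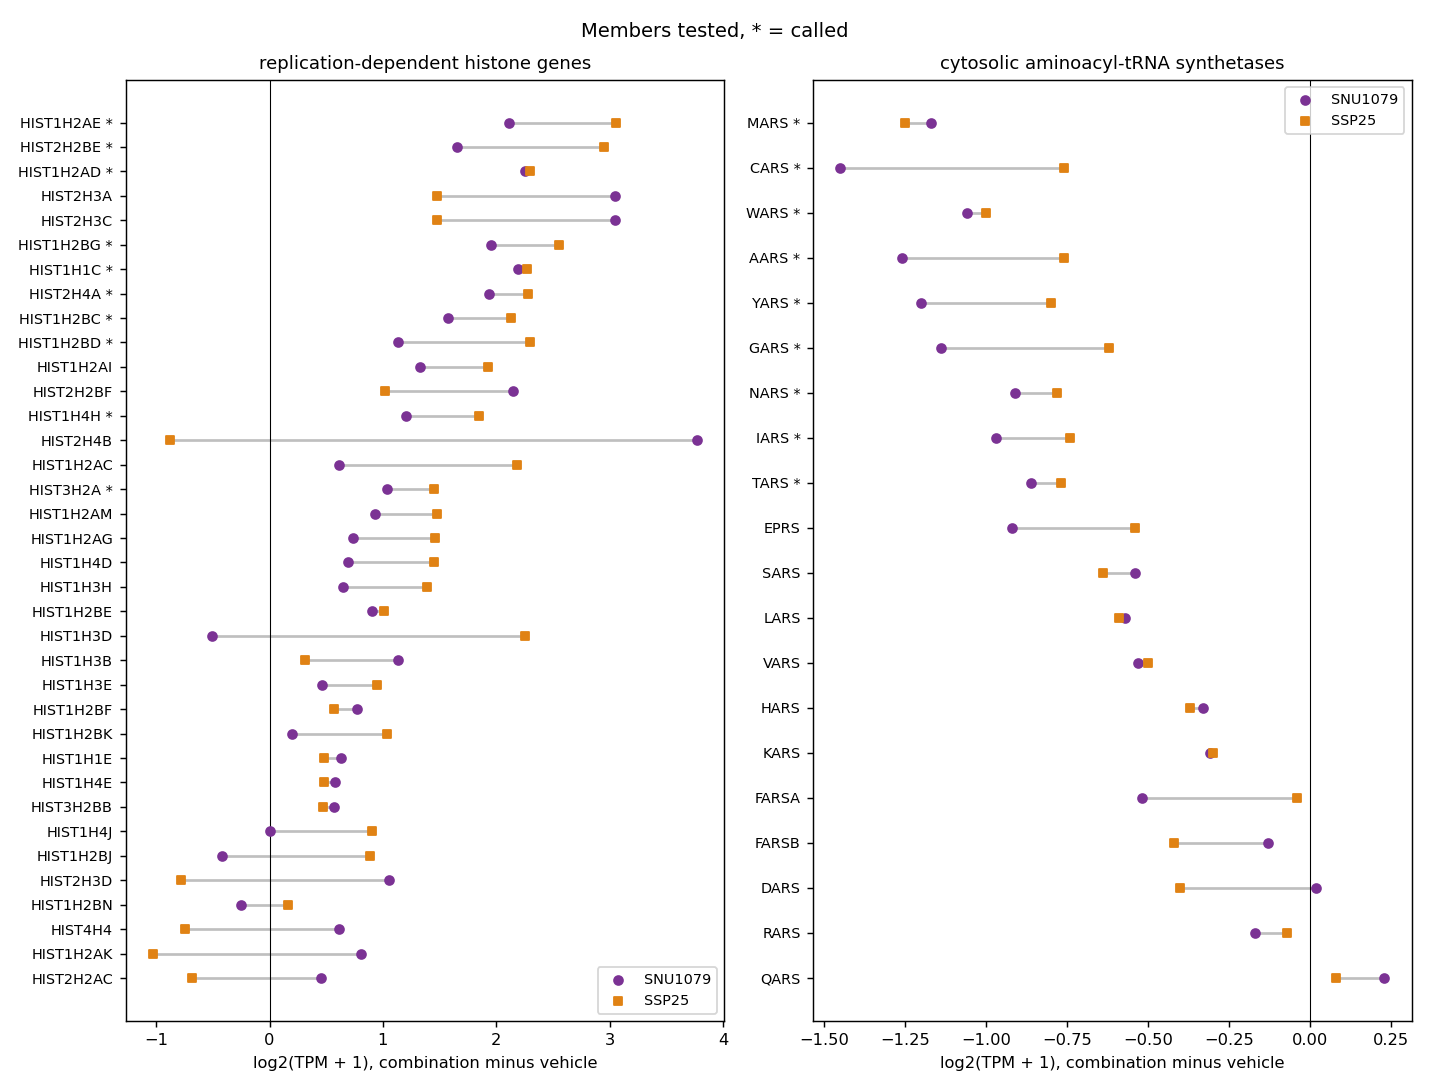
Log2(TPM + 1) in combination minus vehicle for each tested member of 2 lists, replication-dependent histone genes (left) and cytosolic aminoacyl-tRNA synthetases (right), with SNU1079 as circles and SSP25 as squares. Called members carry an asterisk, 10 of 36 histone genes on the right of 0 and 9 of 20 synthetases on the left of 0.

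SQSTM1 and FTL were the most abundant nuclear-encoded genes named among the rises. SQSTM1, the autophagy receptor p62 (chromosome 5, 179233398 to 179265078), was at 1566 TPM with the combination against 869 TPM with vehicle in SNU1079, and at 4998 against 2526 TPM in SSP25 (0.92 ± 0.09, adjusted p = 0.0315). FTL, the ferritin light chain that stores iron, was at 11372 against 6355 TPM in SNU1079 and 29011 against 13559 TPM in SSP25 (0.97 ± 0.15, adjusted p = 0.0426). With BETp alone SQSTM1 was at 1852 TPM and FTL at 13556 TPM in SNU1079, above the combination, and at 4829 and 25768 TPM in SSP25, below it. The FTL call was lost under quantile normalization, which put its change at 0.20 (adjusted p = 0.73). MT2A, a metallothionein that binds zinc and copper, was at 728 against 418 TPM in SNU1079 and 1916 against 678 TPM in SSP25 (1.15 ± 0.16, adjusted p = 0.0393). The SQSTM1 and MT2A calls were also lost under quantile normalization, and were kept with centring. SQSTM1 was the single call among 19 autophagy genes, of which 8 had a mean above 0 and 11 below, and MT2A the single call among 4 metallothioneins, of which MT1G measured -0.61 and MT1F -0.33.

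Other called rises have roles in growth signalling and nutrient sensing. CTGF, a secreted protein and target of YAP and TAZ, was at 52.9 against 23.5 TPM in SNU1079 and 26.6 against 9.27 TPM in SSP25 (1.28 ± 0.20, adjusted p = 0.0426). TXNIP, which binds thioredoxin and limits glucose uptake, was at 77.0 against 35.4 TPM in SNU1079 and 93.9 against 41.8 TPM in SSP25 (1.13 ± 0.16, adjusted p = 0.0374). With each drug alone both genes lay between the vehicle and combination values, at 10.1 to 38.2 TPM for CTGF and 45.6 to 63.4 TPM for TXNIP. IRS2, an adaptor of the insulin receptor, rose by 0.91 ± 0.16 (adjusted p = 0.0489), with 10.4 against 5.51 TPM in SNU1079 and 7.78 against 3.34 TPM in SSP25. TXNIP stayed called under quantile normalization, while CTGF and IRS2 did not. The IRS2 call held in only 1 of 17 alternatives. Of the 16 YAP and TAZ targets tested, CTGF rose, the co-activator gene WWTR1 (TAZ) fell (-0.67 ± 0.10) and the list median was -0.02 (0.21 after centring). CYR61 and ANKRD1, further targets of the list, measured 1.03 ± 0.23 and 1.16 ± 0.41 without passing (adjusted p = 0.0636 and 0.14).

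All 13 protein genes of the mitochondrial genome were higher in both lines, with a median of 0.57 and a range of 0.42 to 0.72, and 2 of them rose (15.4%). MT-CO1, a subunit of cytochrome c oxidase, was at 18178 against 12719 TPM in SNU1079 and 14642 against 8249 TPM in SSP25 (0.67 ± 0.12, adjusted p = 0.0474). MT-ATP6, a subunit of ATP synthase, changed by 0.54 ± 0.09 (adjusted p = 0.0481). Neither was called under quantile normalization, where the list median was 0.26. The 78 nuclear-encoded respiratory chain subunits tested had a median of -0.25, with 62 (79.5%) lower in both lines and 1 call, the fall of NDUFS6. That median was -0.05 with quantile normalization and -0.02 after centring, and thus lay close to the median of all genes.

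**Figure D3:**
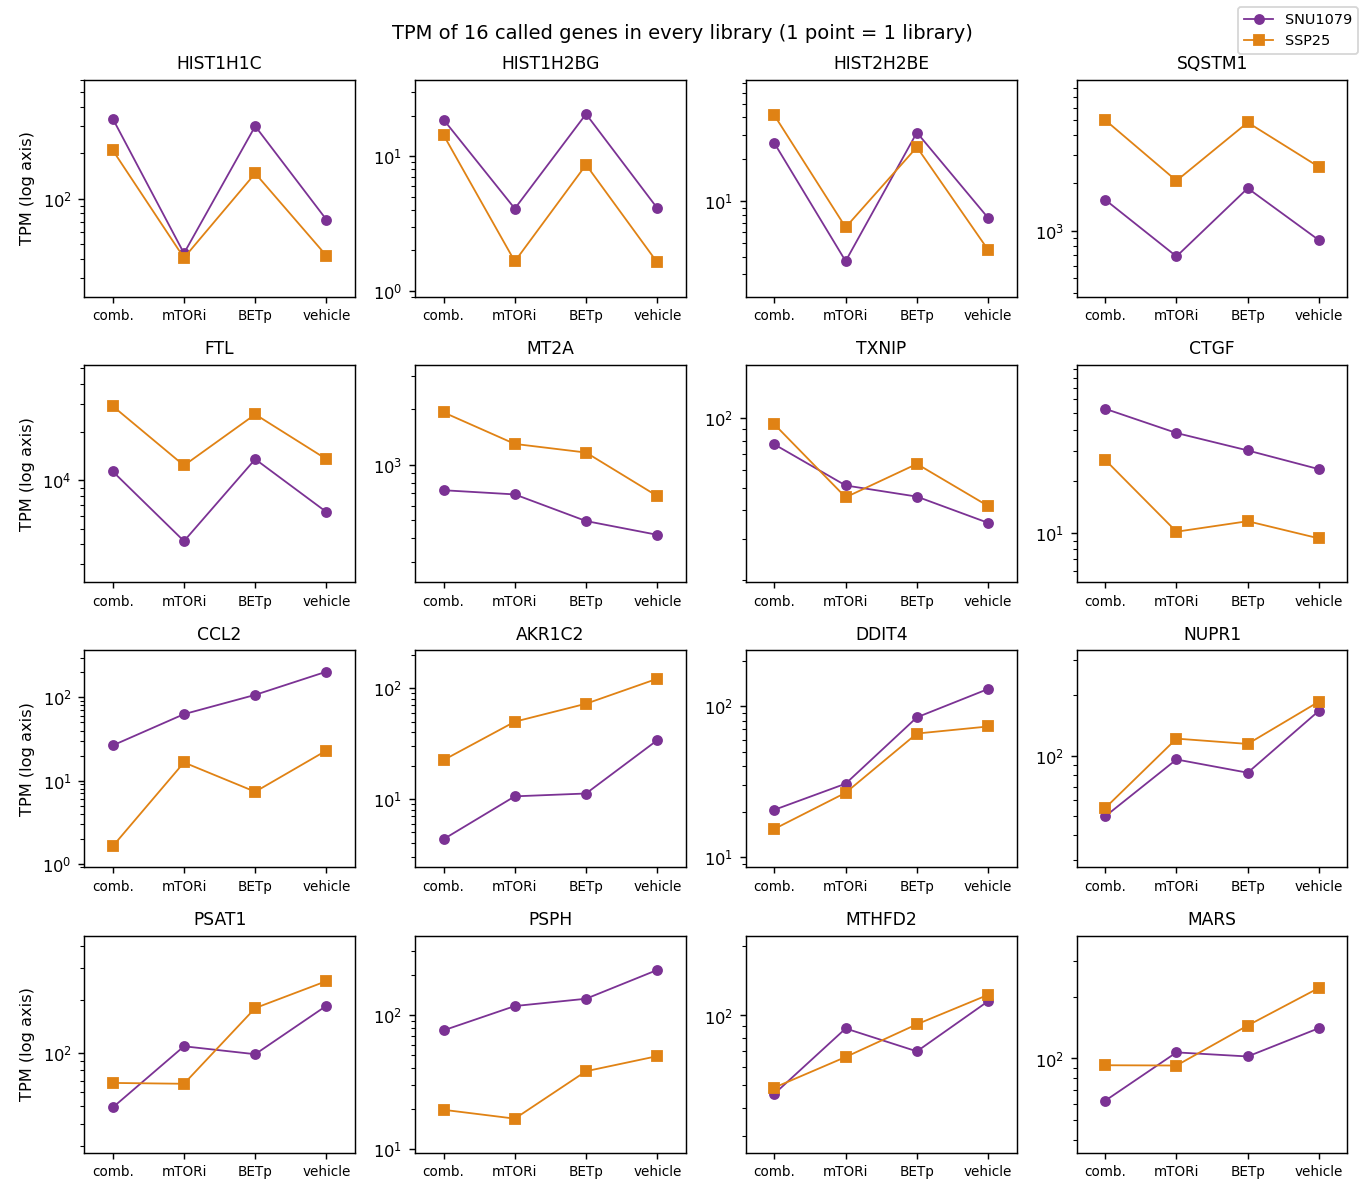
TPM on a log axis of 16 called genes, 8 that rose and 8 that fell, in the combination, mTORi, BETp and vehicle libraries of SNU1079 (circles) and SSP25 (squares), 1 point per library. In every panel the combination value of a line is above its vehicle value for the rises and below it for the falls, as for HIST1H1C (334 against 72.7 TPM in SNU1079) and DDIT4 (20.6 against 130 TPM in SNU1079).

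Targets of ATF4 and the integrated stress response gave the largest number of falls of any list. Of 27 genes tested, 10 fell (37.0%, against 1.52% of all genes) and 0 rose, 21 (77.8%) were lower in both lines, and the median was -0.69 (-0.83 in SNU1079 and -0.67 in SSP25). The median ran from -0.76 to -0.46 over the alternatives, and 2 members stayed called under quantile normalization, DDIT4 and NUPR1. DDIT4 (REDD1), an inhibitor of mTOR complex 1 (chromosome 10, 74033678 to 74035794), was at 20.6 TPM with the combination against 130 TPM with vehicle in SNU1079, and at 15.4 against 73.2 TPM in SSP25. Both combination values were below both vehicle values, with a change of -2.39 ± 0.16 (adjusted p = 0.00579), and the call held in 12 of 17 alternatives. With mTORi alone DDIT4 was at 30.6 and 26.7 TPM in SNU1079 and SSP25, and with BETp alone at 84.2 and 65.8 TPM.

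NUPR1, a small stress-induced nuclear protein (chromosome 16, 28544029 to 28550329), was at 49.8 against 167 TPM in SNU1079 and 54.8 against 186 TPM in SSP25 (-1.74 ± 0.12, adjusted p = 0.00579), also called in 12 of 17 alternatives. TRIB3, a pseudokinase that damps ATF4 signalling, was at 44.2 against 159 TPM in SNU1079 and 48.1 against 170 TPM in SSP25 (-1.81 ± 0.24, adjusted p = 0.0337). The lines agreed closely in both genes, with changes of -1.73 and -1.75 for NUPR1 and -1.83 and -1.80 for TRIB3 in SNU1079 and SSP25. CHAC1, which degrades glutathione, changed by -1.50 ± 0.27 (adjusted p = 0.0489), GPT2, a mitochondrial alanine aminotransferase, by -1.27 ± 0.14 (adjusted p = 0.0315), and XPOT, the exporter of tRNA from the nucleus, by -1.08 ± 0.16 (adjusted p = 0.0393). Without passing the test, ASNS, the asparagine synthetase, measured -1.39 ± 0.33 (adjusted p = 0.0697) and PPP1R15A, a phosphatase subunit that ends the stress response, 0.55 ± 0.19 (adjusted p = 0.128). The mRNA of ATF4 itself was at 255 against 332 TPM in SNU1079 and 314 against 473 TPM in SSP25, a change of -0.49 ± 0.17 that did not pass (adjusted p = 0.135).

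Cytosolic aminoacyl-tRNA synthetases, which load tRNAs with their amino acids, had the highest share of falls among the lists of 10 or more genes. Of 20 tested, 9 fell (45.0%, against 1.52% of all genes), 18 (90.0%) were lower in both lines against 51% of all genes, and the median was -0.66 (-0.72 in SNU1079 and -0.61 in SSP25). MARS, for methionine, was at 62.1 against 141 TPM in SNU1079 and 92.7 against 222 TPM in SSP25 (-1.21 ± 0.20, adjusted p = 0.045). CARS, for cysteine, was at 21.6 against 60.9 TPM in SNU1079 and 111 against 189 TPM in SSP25 (-1.11 ± 0.17, adjusted p = 0.0417). WARS, AARS, YARS, GARS, IARS, NARS and TARS fell by between 0.81 and 1.03 on the log2 scale. QARS, for glutamine, lay at 0.16 ± 0.11 (adjusted p = 0.4) and was the only member above 0 in the mean of the lines. The list median stayed below 0 in every alternative, between -0.80 and -0.43, but 0 members were called under quantile normalization or centring.

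Of 17 amino acid transporters tested, 2 fell (11.8%, against 1.52% of all genes), 15 (88.2%) were lower in both lines against 51% of all genes, and the median was -0.48, against -0.19 for all genes. With quantile normalization or centring limma called 0 of them (12 at unadjusted p under 0.05 as deposited). SLC3A2, the heavy chain CD98 of several transporters, was at 93.8 against 167 TPM in SNU1079 and 220 against 318 TPM in SSP25 (-0.68 ± 0.10, adjusted p = 0.0416). SLC1A4, which carries neutral amino acids, changed by -1.10 ± 0.20 (adjusted p = 0.0489). Its relative SLC1A5 measured -1.07 ± 0.20 and just missed the threshold (adjusted p = 0.0508).

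Stretches before the start of 3 falling genes are shown because they hold the composite C/EBP-ATF response element to which ATF4 binds, searched as TGATGNAA on both strands. The match is in capitals and lies on the reverse strand in all 3. Sequences are RefSeq, build GRCh38.p14, 5′ to 3′ on the strand of the gene.
CHAC1, plus strand, chr15:40953246-40953285: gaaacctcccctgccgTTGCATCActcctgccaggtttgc
AARS, minus strand, chr16:70289670-70289709: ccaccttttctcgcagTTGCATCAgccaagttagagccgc
IARS, minus strand, chr9:92293698-92293737: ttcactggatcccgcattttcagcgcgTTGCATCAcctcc
Within 250 bases before a start the element occurred in 5.85% of the 188 called falls with a RefSeq window, in 0 of 30 called rises and in 2.27% of all 10955 genes with a window. In the list of stress response genes, which was drawn up to hold ATF4 targets, it was in 27.3% of 22 and among the synthetases in 16.7% of 12. Of other classes that ATF4 switches on, it was in 5% of 20 SGOC enzymes and 6.25% of 16 amino acid transporters. It was in 0 of the 3 called SGOC enzymes with a window. Here too a match is no evidence of binding. The element can also lie outside this window, as in introns, which were not searched.

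SGOC enzymes held further falls. The study examined this pathway in the same samples, and a list chosen that way cannot serve as independent evidence of how it moves. Of 26 enzymes tested, 5 fell (19.2%) and 0 rose, 18 (69.2%) were lower in both lines against 51% of all genes, and the median was -0.55 (-0.41 in SNU1079 and -0.56 in SSP25). PSAT1, which makes phosphoserine in serine synthesis (chromosome 9, 80912041 to 80945009), was at 49.3 against 185 TPM in SNU1079 and 67.8 against 254 TPM in SSP25 (-1.89 ± 0.32, adjusted p = 0.0461). PSPH, the phosphatase of the last step, was at 76.7 against 217 TPM in SNU1079 and 19.6 against 49.2 TPM in SSP25 (-1.39 ± 0.22, adjusted p = 0.0426). In SSP25 the values of both with mTORi alone, 67.1 TPM for PSAT1 and 16.8 TPM for PSPH, were at or below those with the combination, while in SNU1079 they were higher, at 109 and 117 TPM.

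PHGDH, which starts serine synthesis, differed in level between the lines. It was at 0.08 against 0.24 TPM in SNU1079, too low to follow, and at 18.5 against 85.5 TPM in SSP25, and did not pass the test (-1.18 ± 0.48, adjusted p = 0.183). The mitochondrial folate enzymes MTHFD2 and SHMT2 fell in both lines. MTHFD2 was at 45.9 against 115 TPM in SNU1079 and 48.8 against 123 TPM in SSP25, with a change of -1.31 in each line (SE 0.18, adjusted p = 0.0348). SHMT2 changed by -1.04 ± 0.12 (adjusted p = 0.0315), and CBS, which uses serine to make cystathionine, by -1.69 ± 0.27 (adjusted p = 0.0438). None of these 5 enzymes was called under quantile normalization, where PSAT1 measured -1.68 (adjusted p = 0.0913).

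The aldo-keto reductases, NADPH-dependent enzymes that reduce carbonyls and steroids, had the lowest list median, -1.20 over 8 genes, with 3 falls (37.5%) and 7 (87.5%) lower in both lines. AKR1C2 (chromosome 10, 5029967 to 5060223) was at 4.34 against 33.9 TPM in SNU1079 and 22.5 against 122 TPM in SSP25 (-2.55 ± 0.18, adjusted p = 0.00635), called in 12 of 17 alternatives. AKR1C1 was at 42.5 against 249 TPM in SNU1079 and 672 against 1320 TPM in SSP25 (-1.75 ± 0.32, adjusted p = 0.0493). AKR1B10, which also reduces retinaldehyde, changed by -2.05 ± 0.34 (adjusted p = 0.0438), and AKR1C3, the prostaglandin F synthase, measured -1.21 ± 0.23 without passing (adjusted p = 0.0516). The calls of AKR1C1 and AKR1B10 held in only 2 and 1 of 17 alternatives, and neither held with quantile normalization or centring. The AKR1C genes are near-identical neighbours whose reads may be split between them.

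Some aldo-keto reductases are also known as targets of NRF2, the factor of the antioxidant response, but the list of NRF2 targets used here leaves them out. Of its 25 genes tested, FTL rose and ABCC2, TKT and EPHX1 fell, with a median of -0.05 that turned to 0.08 with quantile normalization and 0.19 with centring. ABCC2, an exporter of conjugated bilirubin and drugs, was at 4.50 against 17.3 TPM in SNU1079 and 14.6 against 39.5 TPM in SSP25 (-1.56 ± 0.18, adjusted p = 0.0315). UGT1A6, which glucuronidates phenols, was at 11.9 against 51.1 TPM in SNU1079 and 50.4 against 122 TPM in SSP25 (-1.63 ± 0.19, adjusted p = 0.0315). UGT1A1, the bilirubin-conjugating form, changed by -1.76 ± 0.20 (adjusted p = 0.0315), but UGT1A genes share their last exons and their reads cannot be fully separated.

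Of 22 inflammatory chemokines and cytokines tested, 3 fell (13.6%), 17 (77.3%) were lower in both lines against 51% of all genes, and the median was -0.63 (-0.36 in SNU1079 and -0.67 in SSP25). CCL2, which draws monocytes (chromosome 17, 32582293 to 32584227), was at 26.5 against 204 TPM in SNU1079 and 1.62 against 23.0 TPM in SSP25 (-3.05 ± 0.39, adjusted p = 0.0335). With mTORi alone it was at 62.9 and 16.5 TPM and with BETp alone at 107 and 7.33 TPM in SNU1079 and SSP25. TNFSF10, the death receptor ligand TRAIL, was at 4.46 against 12.8 TPM in SNU1079 and 2.03 against 8.42 TPM in SSP25 (-1.48 ± 0.18, adjusted p = 0.0315). CXCL2, which draws neutrophils, changed by -1.22 ± 0.22 (adjusted p = 0.0493). None of these 3 calls held with quantile normalization (adjusted p = 0.0545 for CCL2 and TNFSF10 and 0.123 for CXCL2). CCL26, an eosinophil chemokine outside the list, changed by -2.07 ± 0.25 (adjusted p = 0.0315), with 1.10 against 11.1 TPM in SNU1079 and 15.3 against 49.0 TPM in SSP25. IL18 had values in the other direction, 86.3 against 36.0 TPM in SNU1079 and 114 against 77.8 TPM in SSP25, without passing (0.89 ± 0.20, adjusted p = 0.0636).

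HLA-DMB and LGALS9 were also among the 15 largest falls. HLA-DMB, a chaperone of MHC class II loading, was at 5.01 against 20.0 TPM in SNU1079 and 1.52 against 7.90 TPM in SSP25 (-1.81 ± 0.18, adjusted p = 0.0315) and stayed called with quantile normalization. LGALS9, which encodes galectin-9, changed by -1.80 ± 0.28 (adjusted p = 0.0438). The 14 MHC class I genes tested had 0 calls by limma (3 at unadjusted p under 0.05, median -0.24), as had the 18 NF-kB pathway genes (8 at unadjusted p under 0.05, median -0.44, 77.8% lower in both lines). After centring these medians were -0.01 and -0.21. Of the 17 retinoid genes tested, 13 (76.5%) were lower in both lines against 51% of all genes, with a median of -0.67 and 2 falls (11.8%), STRA6, a receptor for retinol uptake (-1.63 ± 0.18, adjusted p = 0.0315), and RARRES3, a retinoid-induced gene (-1.23 ± 0.17, adjusted p = 0.0347). Neither stayed called with quantile normalization (adjusted p = 0.0538 for STRA6 and 0.0661 for RARRES3). RARRES3 was at 5.87 against 12.2 TPM in SNU1079 and 46.3 against 136 TPM in SSP25.

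CTD-2224J9.4, a transcribed processed pseudogene, was called lower. It was listed at 0 in both combination libraries and in the 4 single-drug libraries, while vehicle gave 11.8 TPM in SNU1079 and 11.2 TPM in SSP25 (adjusted p = 0.00579). A value of 0 in these tables can be a failed estimate, so no fold or rank is given. PCED1B, a gene of uncertain function, was at 0.42 against 9.4 TPM in SNU1079 and 6.10 against 17.3 TPM in SSP25 (-2.12 ± 0.33, adjusted p = 0.0426). LINC01133, a long non-coding RNA, changed by -1.95 ± 0.20 (adjusted p = 0.0315).

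Among genes of the drugs' own pathways few calls were made. The genes BRD2 (0.44 ± 0.11), BRD3 (0.33 ± 0.25), MTOR (-0.22 ± 0.14) and CRBN (-0.07 ± 0.13) did not pass (adjusted p between 0.077 and 0.762). As both drugs act on proteins, these mRNA levels do not check their action. MYC was at 124 against 121 TPM in SNU1079 and 43.8 against 41.8 TPM in SSP25 (0.06 ± 0.11, adjusted p = 0.759). Of 30 genes of the mTOR complexes and their regulators, DDIT4 and EIF4EBP1, the translation repressor 4E-BP1 (-0.90 ± 0.11, adjusted p = 0.0335), fell, and the list median was -0.20. The 17 BET and elongation genes had 0 calls by limma (5 at unadjusted p under 0.05) and a median of -0.07. Both medians gave no direction, being 0.03 and 0.16 after centring.

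Of the 79 cytosolic ribosomal protein genes tested, 41 (51.9%) were higher in both lines, against 13.2% of all genes, and 25.3% were lower in both. Their median was 0.08, which was 0.00 with quantile normalization and 0.31 with centring, and there was 1 call, the fall of RPL39L (-0.99 ± 0.14, adjusted p = 0.0393). TPT1, another mRNA with a terminal oligopyrimidine start, rose by 0.43 ± 0.08 (adjusted p = 0.0493). Genes of protein folding and turnover also held calls. HSPA4, at -0.55, was the single call of 15 cytosolic heat shock chaperones. XBP1, a transcription factor of the unfolded protein response, changed by -0.80 ± 0.11 (adjusted p = 0.0393), and PDIA6 and SDF2L1 by -0.71 ± 0.09 and -0.70 ± 0.12, 3 of 16 endoplasmic reticulum genes in all. The proteasome list had 3 falls of 37, PSMB6, PSMA6 and PSMB3, each near -0.50, and 34 members (91.9%) lower in both lines. Its median was -0.28, which was -0.05 after centring.

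Lipid and nucleotide synthesis genes gave isolated calls. SCD, which desaturates fatty acids, changed by -0.93 ± 0.15 (adjusted p = 0.0438) and FADS1 by -0.94 ± 0.16 (adjusted p = 0.045), 2 of 33 sterol and fatty acid genes, whose median of -0.22 was 0.02 with both quantile normalization and centring. CTPS1, the cytidine triphosphate synthase, changed by -0.78 ± 0.11 (adjusted p = 0.0393), with 16 of 17 purine and pyrimidine genes (94.1%) lower in both lines. PDK1, which restrains pyruvate entry to mitochondria, changed by -0.87 ± 0.15 (adjusted p = 0.0489), the single call of 28 glycolysis and hypoxia genes. ETV1, a transcription factor downstream of ERK, changed by -1.33 ± 0.23 (adjusted p = 0.0474).

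**Figure D4:**
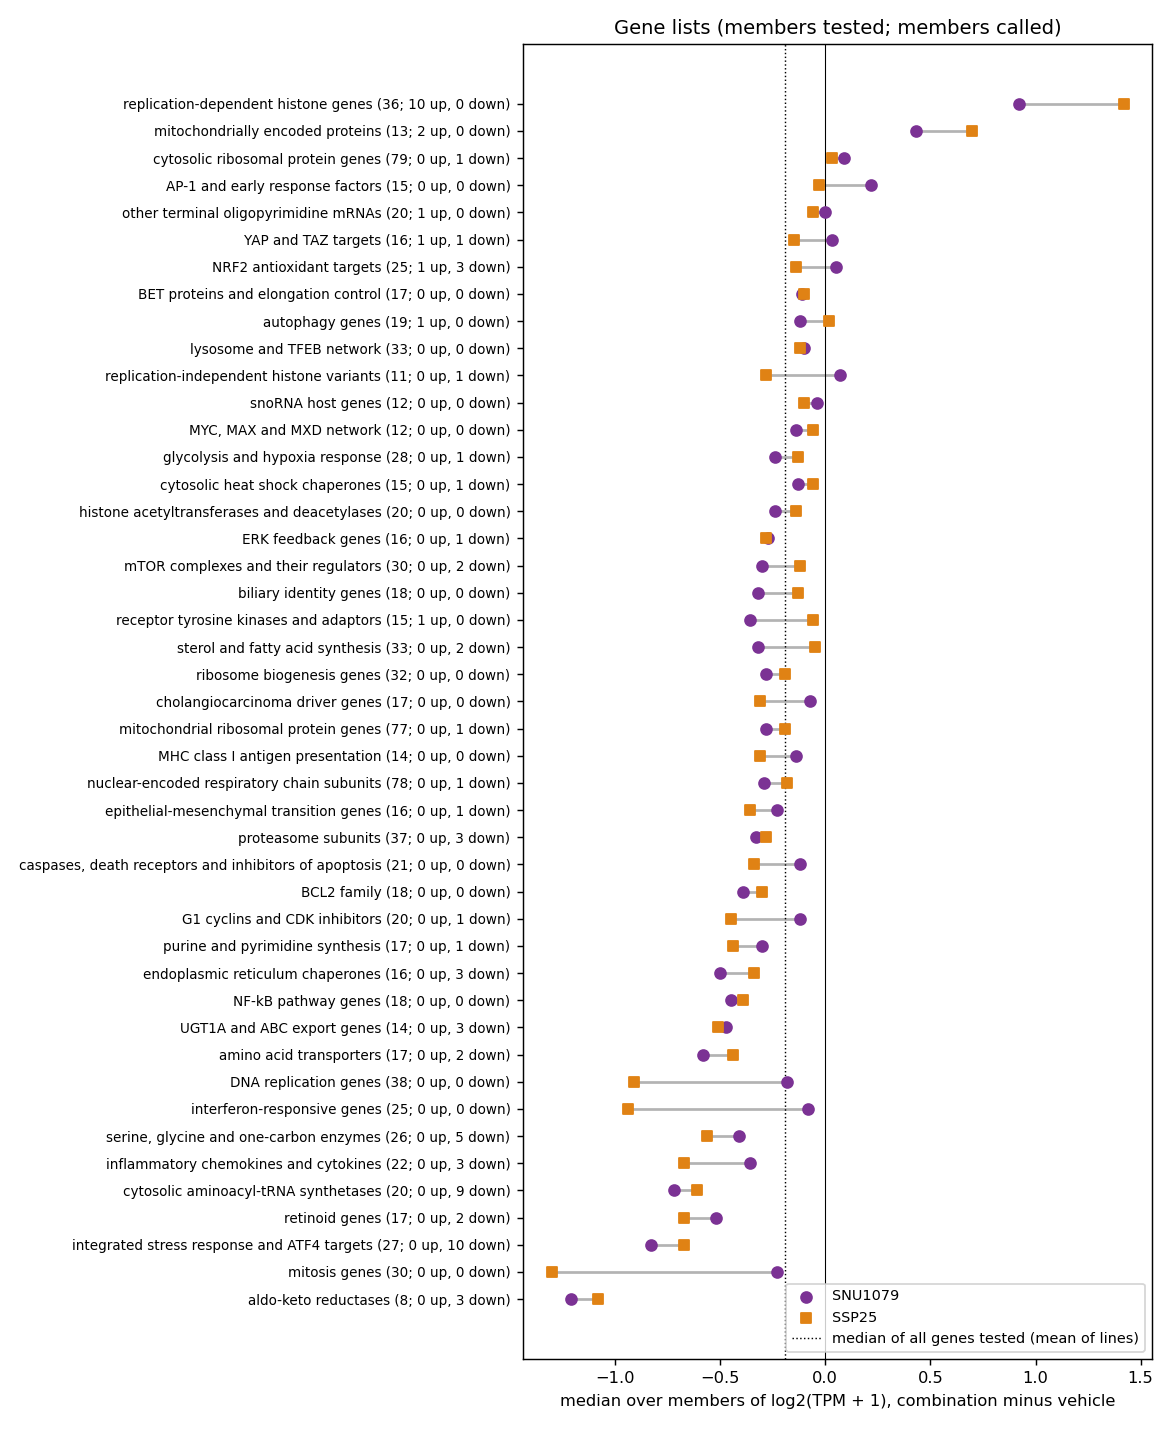
Median over the tested members of log2(TPM + 1), combination minus vehicle, for each gene list of 8 or more genes in SNU1079 (circles) and SSP25 (squares), with the median of all genes tested (-0.19) as a dotted line. Histone genes lie highest in both lines (0.92 and 1.42), aldo-keto reductases lowest in SNU1079 (-1.21) and mitosis genes lowest in SSP25 (-1.30), and mitosis, DNA replication and interferon-responsive genes are the lists in which the lines are furthest apart.

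Proliferation genes had lower medians in SSP25 than in SNU1079. The medians of all genes tested were -0.18 in SNU1079 and -0.17 in SSP25. In SNU1079 the mitosis and DNA replication lists therefore lay at or close to the median of all genes, which limits the shares lower in both lines. After centring, their medians in the mean of the lines were -0.58 and -0.28. Mitosis genes had a median of -0.23 in SNU1079 and -1.30 in SSP25, with 28 of 30 (93.3%) lower in both lines, against 51% of all genes, and 0 calls by limma (18 at unadjusted p under 0.05, against 4148 of all 16060 genes). PLK1, a kinase of mitotic entry, was at 34.0 against 51.5 TPM in SNU1079 and 27.0 against 94.9 TPM in SSP25 (-1.18 ± 0.34, adjusted p = 0.0983). DNA replication genes had medians of -0.18 in SNU1079 and -0.91 in SSP25, with 28 of 38 (73.7%) lower in both lines and 0 calls by limma (19 at unadjusted p under 0.05). The replicative helicase gene MCM4 measured -0.55 and -1.12 in these lines. The difference between the lines could not be tested, since each line holds 1 library per treatment. Of the G1 genes, CCND3, which encodes cyclin D3, fell, with 39.1 against 78.1 TPM in SNU1079 and 39.6 against 77.6 TPM in SSP25 (-0.97 ± 0.10, adjusted p = 0.0315). CDKN1A, which encodes the inhibitor p21, was at 412 against 488 TPM in SNU1079 and at 114 against 46.9 TPM in SSP25, and did not pass (adjusted p = 0.317).

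Interferon-responsive genes had a median of -0.94 in SSP25 and -0.08 in SNU1079, and limma called 0 of 25 (8 at unadjusted p under 0.05). IFI44L was at 1.02 against 15.0 TPM in SSP25 and at 0.13 against 1.00 TPM in SNU1079, and OAS1, a sensor of double-stranded RNA, at 4.44 against 20.2 TPM in SSP25 and 5.80 against 10.0 TPM in SNU1079. Genes of cell death had 0 calls by limma, with medians of -0.30 over 18 BCL2 family genes (4 at unadjusted p under 0.05) and -0.29 over 21 genes of caspases, death receptors and their inhibitors (8 at unadjusted p under 0.05). After centring these medians were -0.07 and -0.06. Among the cell death genes BAK1, which permeabilises mitochondria, measured -0.69 ± 0.13 (adjusted p = 0.0516) and BIRC3, an inhibitor of apoptosis, -1.12 ± 0.34 (adjusted p = 0.107). Biliary identity genes had a median of -0.20, which was 0.03 after centring, and limma called 0 of 18 (5 at unadjusted p under 0.05).

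Some genes could be followed in 1 line alone, being under 1 TPM in all 4 libraries of the other, and their values carry no test. GJA1, the gap junction protein connexin 43, was at 1.74 against 26.3 TPM in SNU1079 and under 0.1 TPM in every SSP25 library. CD79A, a B cell receptor component, was at 0.87 against 11.7 TPM in SNU1079. In SSP25, ANXA10, an annexin, was at 1.87 against 27.9 TPM, IDO1, which degrades tryptophan, at 0.48 against 10.7 TPM, and SPANXA2, a testis antigen with near-identical copies, at 43.3 against 0.01 TPM. SPANXA2 was also at 243 TPM with mTORi and 115 TPM with BETp in SSP25. The other genes that the same rule named in this class were small non-coding RNAs, pseudogenes and antisense transcripts, most of them listed at 0 in 2 or more libraries of the line they were measured in.

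The single-drug libraries place the combination beside its parts. All 3 sets of changes share the same vehicle libraries, so they are given side by side and without a test. Over the 47 called rises the median change was 1.20 with the combination, 0.15 with mTORi and 0.73 with BETp. Over the 244 called falls it was -0.91, -0.42 and -0.41 in that order. Histone genes stood at 1.08 with the combination, -0.17 with mTORi and 1.00 with BETp (medians of 36 genes). The synthetases stood at -0.66, -0.44 and -0.34, SGOC enzymes at -0.55, -0.28 and -0.19, chemokines and cytokines at -0.63, -0.20 and -0.46, and mitosis genes at -0.81, 0.07 and -0.26. For the called genes a combination value furthest from vehicle is what their selection favours.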

How the data were processed

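RNA was sequenced from 8 libraries, 4 of which are compared here. Strand-specific libraries were made from total RNA by the dUTP method, and the authors deposited TPM values, 1 table per line with 56269 genes. The submitters' processing notes name GRCh37, DESeq2 and edgeR. For the aligner and the gene annotation, no name is given in the sources used here. TPM keeps no depth, so no counting error can be given. Table columns were matched to samples by title, and none was left unused.

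Values were transformed to log2(TPM + 1), and a gene was tested if 2 or more libraries held at least 1 TPM of it (16060 genes). All 8 libraries were fitted in limma 3.58.1 (R 4.3.3) with treatment and cell line as terms (3 residual degrees of freedom, trended eBayes). P-values were two-sided and Benjamini-Hochberg adjusted over all genes, with calls at 0.05. Libraries with the same replicate number come from the same cell line, which is the source of the pairing, and correlated at 0.975 to 0.986 against 0.789 to 0.807 between lines. The fit was tested on simulated data. The comparison, the 48 gene lists and the named genes were chosen with earlier results of these data known. Named genes were 10 genes of the drugs' targets and of the study (1 of them is not reported here), the 15 largest called rises and falls with a mean of 5 TPM or more, up to 6 called and 4 uncalled members of each list, and the genes opposite in or restricted to a line. Positions are GENCODE 44 on GRCh37, and promoter windows RefSeq GRCh38.p14 (10955 genes). A gene with several starts counted if any window matched.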

Additional observations from a re-analysis of the deposited data

Results flagged for a closer look

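The named genes below went opposite ways in the lines by at least 0.5 log2 units in each. With 1 library per line and treatment, this difference was not tested. Values are the log2 change of combination against vehicle in SNU1079 minus that in SSP25. Higher in SNU1079 and lower in SSP25 were RP13-401N8.3 (difference 3.58), RPPH1, the RNA of ribonuclease P (2.16), PIGY (1.88), HIST1H2AK (1.84), PRR34-AS1 (1.38) and GTF2IRD2B (1.36). Lower in SNU1079 and higher in SSP25 were an antisense transcript known by a clone name (-7.60), LUZP6 (-5.17), TCP11L2 (-1.80), HTRA1, a secreted serine protease (-1.58), and RP11-572P18.1 (-1.44). That antisense transcript was at 40.1 against 154 TPM in SNU1079 and at 50.5 TPM against a listed 0 in SSP25, and LUZP6 at 0.61 against 23.8 TPM and 83.8 against 35.1 TPM. HTRA1 was at 57.1 against 92.5 TPM in SNU1079 and 16.5 against 8.38 TPM in SSP25. GTF2IRD2B has a near-identical copy, and LUZP6 and PIGY overlap other genes, so their reads may be split.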

How the results depend on the processing

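As deposited, 291 genes were called, 47 higher and 244 lower in the combination. Calls (rises and falls) numbered 86 (12 and 74) with a pseudocount of 0.1, 2 (0 and 2) with no filter, 657 (79 and 578) with a filter at 5 TPM, 21 (12 and 9) with quantile normalization, 89 (27 and 62) when rescaled without the mitochondrial genome, 9 (1 and 8) with robust eBayes without trend, 12 (4 and 8) with the 4 libraries alone (1 residual degree of freedom), and 78 (53 and 25) when centred on the median gene, which was added after the data had been seen. Without the block for cell line (no pairing) limma called 0 genes (296 at unadjusted p under 0.05). Leaving out 1 library gave 0 to 136 calls (0 to 31 rises and 0 to 105 falls), with 136 and 135 without mTORi, 9 without either BETp library, and 6 or fewer without a library of the comparison itself. In those fits the lone library of a treatment is assumed to vary like the others. Of the 291 genes, 276 stayed called at 5 TPM, 83 with a pseudocount of 0.1 and 20 with quantile normalization, and none reversed direction in any alternative. CTD-2224J9.4 stayed called in 13 of 17 alternatives. Directions turned for 3 uncalled genes near 0, CRBN (0.16 with quantile normalization, 0.00 without the mitochondrial genome, 0.16 centred, -0.15 to 0.02 with 1 library left out), MTOR (0.00 with quantile normalization and 0.01 centred) and MYC (-0.01 to 0.12 with 1 library left out, the lowest without SSP25 combination, which also gave the 0.02 of CRBN). The cause of these shifts was not tested. Unknown depth limits the reading of low genes.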

Other observations

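The following groups were chosen after their values were seen and carry the genome-wide limma adjusted p only. Among the called falls were 3 genes of S100 calcium-binding proteins on chromosome 1, and other members of the family were not tallied. S100A4, linked to cell motility, was at 17.3 TPM with the combination against 56.2 TPM with vehicle in SNU1079 and at 20.8 against 66.4 TPM in SSP25 (-1.63 ± 0.11, adjusted p = 0.00579), and S100A2 and S100A3 changed by -1.36 ± 0.16 and -1.35 ± 0.16 (adjusted p = 0.0315 each). EFEMP1, an extracellular matrix protein, was at 9.10 against 29.9 TPM in SNU1079 and 7.96 against 27.5 TPM in SSP25 (-1.64 ± 0.12, adjusted p = 0.00635). The DNA methyltransferase genes DNMT1 and DNMT3B changed by -0.80 ± 0.13 and -1.51 ± 0.24 (adjusted p = 0.0438 each), with DNMT3B at 1.72 against 9.44 TPM in SNU1079 and 1.85 against 4.99 TPM in SSP25. DNMT1 was near vehicle with each drug alone, at -0.17 with mTORi and -0.03 with BETp. The RNA-binding protein genes HNRNPA2B1, HNRNPDL and HNRNPH3 changed by -0.88 ± 0.13, -0.63 ± 0.11 and -0.99 ± 0.18 (adjusted p = 0.0393, 0.0489 and 0.0489). LCP1 and EVI2A, best known from blood cells, changed by -1.38 ± 0.15 and -1.36 ± 0.18 (adjusted p = 0.0315 and 0.0337). The leukocyte genes PTPRC and CD3E stayed at or under 0.24 TPM in all libraries, while CD68 lay between 76.4 and 210 TPM. A part of other cell types in these falls was not tested.

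Among rises, C5orf45 (1.19 ± 0.15, adjusted p = 0.0335) overlaps SQSTM1 at its end on the opposite strand, and both had their highest values in the combination and BETp libraries. PNPLA2, the triglyceride lipase ATGL, was at 116 against 62.3 TPM in SNU1079 and 270 against 141 TPM in SSP25 (0.91 ± 0.11, adjusted p = 0.0335) and stayed called with quantile normalization.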
